A study of Mus musculus with 8 samples.

Results

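The TGF-beta and BMP pathway was followed through the mouse pancreatic bud as a set of 43 genes for its ligands, receptors, secreted antagonists, Smads and Id targets, of 19938 genes measured. They were chosen by name: a member is a gene whose probe set carries exactly 1 symbol and whose symbol is on the given list of 43. All 43 were measured, each by exactly 1 such probe set (for the 6 members called below: Tgfb1 10551185, Tgfb2 10360920, Bmp4 10419261, Inhba 10403743, Eng 10471486 and Acvrl1 10426999). The platform was the Affymetrix array for mouse genes (version 1.0 ST), which reads a gene through many short probes. Its values are log2 expression, the scale of all values below unless linear signal is named. Every bud was taken at e12.5, when the epithelium branches into the surrounding mesenchyme, and the study compared 4 groups. The group here called VEGF was fresh buds of Pdx1-tTA; TET-VEGF embryos (3, pooled), in which the promoter of the pancreatic gene Pdx1 drives the transactivator tTA and tTA switches on a VEGF transgene. Its control was fresh buds of littermates with Pdx1-tTA alone (3, pooled), so both groups carry the transactivator. The other two groups were wild-type buds, explanted and cultured for 2 days with VEGFR2i or with vehicle (5 each, pooled). By its name VEGFR2i is an inhibitor of VEGF receptor 2, the receptor (gene Kdr) through which VEGF acts on endothelial cells.

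TGF-beta, activin and BMP ligands are secreted dimers that bring together a type I and a type II receptor, both of them serine/threonine kinases. The type I receptor then phosphorylates receptor Smads, Smad2 and Smad3 for TGF-beta and activin and Smad1 and Smad5 for BMP, which join Smad4 and enter the nucleus, where the Id genes and the inhibitory Smads are typical BMP targets. In endothelial cells the type I receptor Acvrl1 (ALK1) and the coreceptor endoglin (Eng) divert the signal to the BMP Smads, and in the embryonic pancreas ligands from the mesenchyme act on the growth and differentiation of the epithelium.

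Each group was 1 pool of RNA on 2 arrays, the second a technical repeat. No test of the conditions was possible, and the spread between arrays is technical error only. Each difference below is between the means of 2 pools, on the log2 scale, and is followed in brackets by its range over the 4 pairs of arrays. Higher or lower is used of genes whose pool means stood at least 1.5-fold apart (0.58 on the log2 scale) and whose arrays did not overlap between the pools. Between the 2 arrays of one pool, no member differed by 1.5-fold in any of the 4 pools. Of all genes 4 to 25 did, which is 0.0201% to 0.125%. At these shares none would be likely in a set as small as the members, so their repeats were not shown to be closer. The largest gap of a member was 0.38 (Acvrl1, vehicle). Fresh buds and explants may have been normalized separately, so an order of levels across them is a description of the deposited values only. In pools of whole buds, fewer cells of a type and less RNA per cell cannot be told apart. Markers of pancreas were present in all pools: Pdx1 stood at 6.38 in VEGF, 6.96 in control, 8.43 in the explants labelled VEGFR2i and 8.43 in vehicle.

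Endothelial marker signal differed between the pools of both comparisons, and in the explants it went against the labels. The summed linear signal of 20 endothelial markers was 5887 and 5705 on the VEGF arrays against 3770 and 3713 on the control arrays. It was 2779 and 2699 in the explants labelled VEGFR2i against 591 and 557 in vehicle, so the pool labelled with the inhibitor had the higher endothelial signal. The lowest pool mean of a marker of this list was 3.30, in vehicle, not far above the lowest value on any array, 2.41. The label is therefore written as "labelled VEGFR2i" throughout.

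The sequences just upstream of the genes that were higher in either comparison are shown first, since these are the members that the results turn on. RefSeq promoters of the build GRCm38.p6 were held for 30 of the 43 members and for 5 of the 6 called members: Tgfb1, Tgfb2, Bmp4, Inhba and Eng. Each line gives the 250 bases before the annotated start, read 5′ to 3′ on the gene's strand. Capitals mark the core that ETS factors bind, GGAAG on either strand (CTTCC where it lies on the other). They also mark TATAAA, the core promoter box read by the general transcription machinery. Both were looked for after the values had been seen. The regions are chr7:25686752-25687001 on the plus strand for Tgfb1, chr2:32646345-32646594 on the plus strand for Eng, chr14:46390670-46390919 on the minus strand for Bmp4, chr1:186705990-186706239 on the minus strand for Tgfb2 and chr13:16011601-16011850 on the plus strand for Inhba.
Tgfb1: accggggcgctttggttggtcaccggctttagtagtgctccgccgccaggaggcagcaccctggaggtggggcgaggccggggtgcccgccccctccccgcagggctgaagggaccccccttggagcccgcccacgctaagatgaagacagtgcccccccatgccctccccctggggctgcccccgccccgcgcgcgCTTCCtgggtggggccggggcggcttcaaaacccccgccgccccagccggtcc
Eng: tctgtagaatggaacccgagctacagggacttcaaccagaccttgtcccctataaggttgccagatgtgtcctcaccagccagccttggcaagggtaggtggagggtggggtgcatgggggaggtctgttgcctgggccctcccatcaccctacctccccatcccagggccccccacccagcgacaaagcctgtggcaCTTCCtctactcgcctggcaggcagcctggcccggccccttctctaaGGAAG
Bmp4: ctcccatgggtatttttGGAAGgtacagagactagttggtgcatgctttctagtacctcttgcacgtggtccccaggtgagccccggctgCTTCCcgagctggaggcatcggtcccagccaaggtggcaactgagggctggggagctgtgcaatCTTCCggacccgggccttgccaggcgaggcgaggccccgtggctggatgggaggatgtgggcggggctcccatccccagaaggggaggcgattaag
Tgfb2: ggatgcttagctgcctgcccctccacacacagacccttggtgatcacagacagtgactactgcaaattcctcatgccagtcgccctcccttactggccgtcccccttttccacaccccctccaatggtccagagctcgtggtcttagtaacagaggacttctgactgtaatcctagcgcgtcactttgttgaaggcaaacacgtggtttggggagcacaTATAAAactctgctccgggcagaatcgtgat
Inhba: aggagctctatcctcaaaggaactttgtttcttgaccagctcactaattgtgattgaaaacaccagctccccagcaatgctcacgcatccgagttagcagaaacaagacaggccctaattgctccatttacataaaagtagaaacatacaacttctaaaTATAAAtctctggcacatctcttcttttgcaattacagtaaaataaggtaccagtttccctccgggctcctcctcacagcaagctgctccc

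The printed stretch held 1 GGAAG site for Tgfb1, 2 for Eng and 3 for Bmp4, and none for Tgfb2 or Inhba. Both of these held a TATAAA, which begins 31 bases before the start of Tgfb2 and 91 before that of Inhba. These letters are common: GGAAG, on either strand, was in 71.4% of all 32851 windows of the RefSeq table, which run from 250 bases before to 50 after a start, and in 23 of the 35 windows of members (65.7%). TATAAA was in 13.6% of all windows and in 4 of the 35 (11.4%). Of the motifs searched on both strands, the GC-rich Smad element GGCGCC was in 11.9% of all windows and in 11 of the 35 (31.4%), none of them of a called member. It was found for Acvr1b, Bmpr1a, Bmpr2, Chrd, Gdf10, Grem1, Id2, Id4, Smad5 and Tgfbr1. The windows of members were also richer in G and C, with a median of 66.7% against 52.7%. The palindromic Smad box GTCTAGAC was in 0.213% of all windows and in that of Smad6, which encodes an inhibitor of BMP signalling. The longer ETS site CCGGAAGT, which contains GGAAG, was in 3.89% of all windows and in that of Acvr2a.

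In the fresh buds the ligands Bmp4 and Tgfb2 were higher in the VEGF pool, and Gdf10, Tgfb1 and Eng came next with 1.43-fold to 1.49-fold. Of the 43 members 2 were higher (4.65%) and 0 lower, against 0.552% higher, 0.933% lower and 1.48% in either direction of all genes. The arrays of the VEGF pool lay above both control arrays, at any size, for 23 members (53.5%) and below for 7 (16.3%), against 23.7% and 21.6% of all genes. The median difference of the members was 0.07, and that of all genes 0.00.

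In the explants, the TGF-beta ligand Tgfb1 and the endothelial coreceptor Eng were about 3-fold higher in the pool labelled VEGFR2i, and Inhba and Acvrl1 were higher by 1.67-fold and 1.53-fold. These 4 members (9.3%) were higher and 0 lower, against 1.82% higher, 0.371% lower and 2.19% in either direction of all genes. The arrays labelled VEGFR2i lay above both vehicle arrays for 21 members (48.8%) and below for 12 (27.9%), against 25.9% and 25% of all genes, so that the share below was near that of all genes. The median difference was 0.11 for the members and 0.00 for all genes, and that of the members was 0.06 without VEGFR2i array 1 and 0.07 without VEGFR2i array 2. No member passed the rule in both comparisons.

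**Figure D1:**
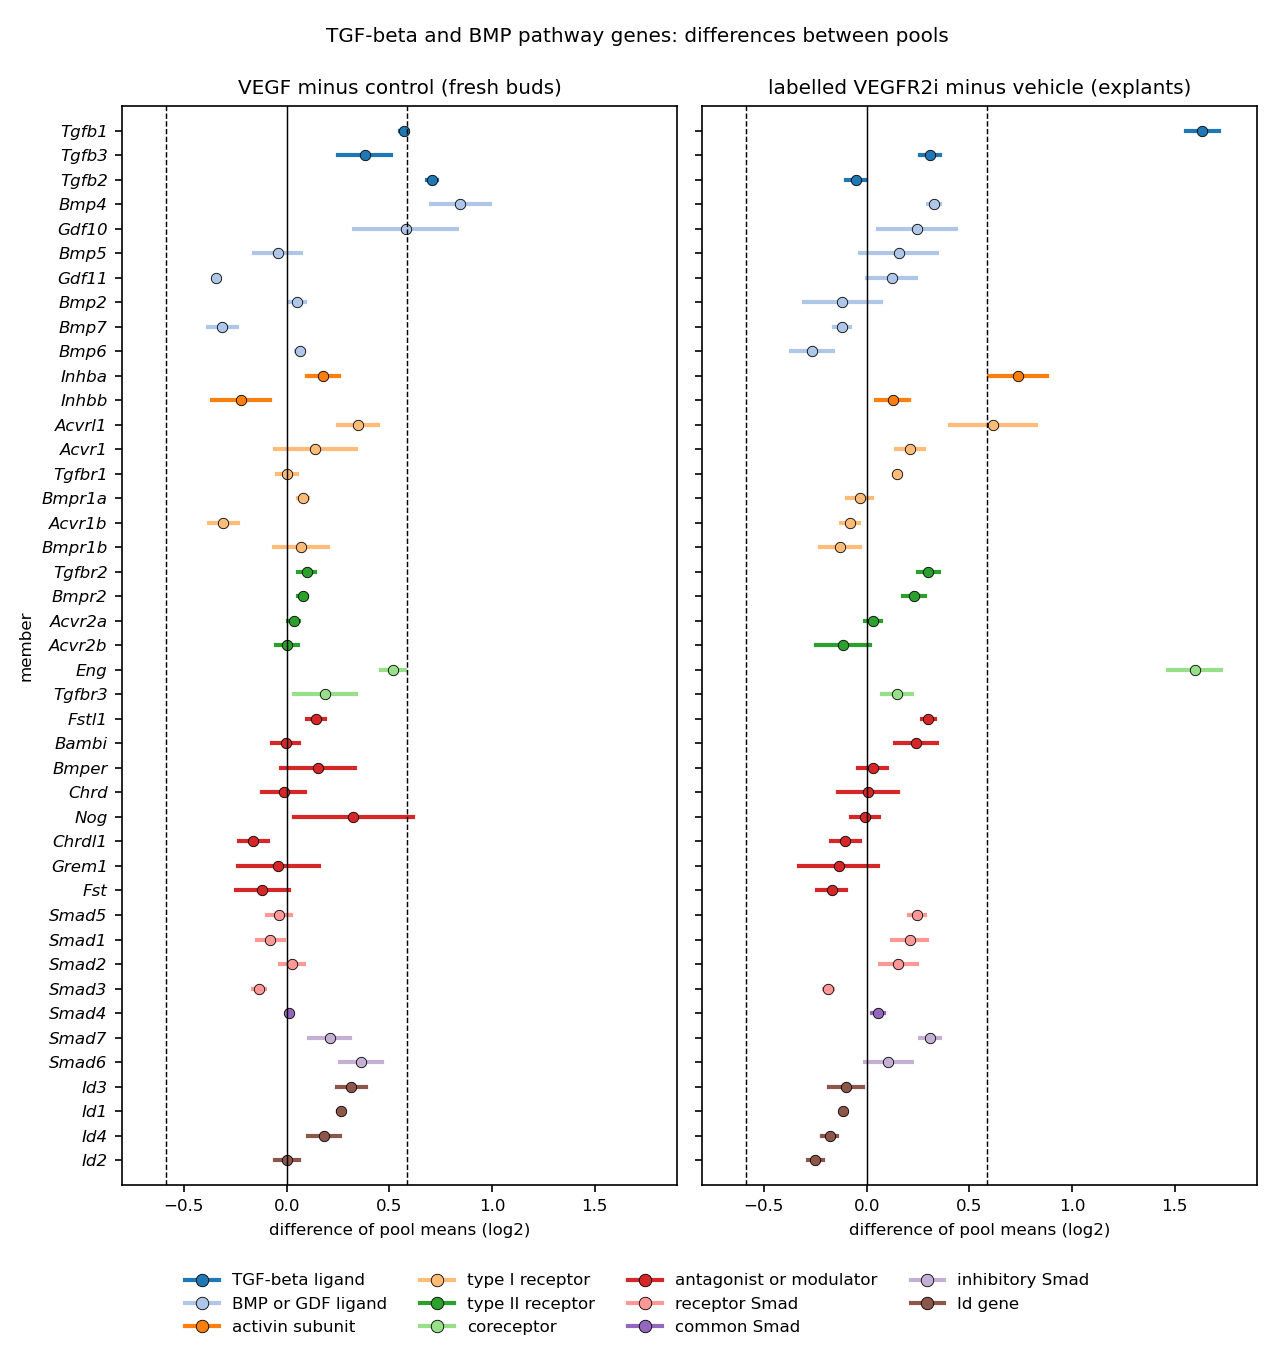
Difference of pool means (log2, horizontal axis) of the 43 members, ordered and coloured by role, for VEGF minus control fresh buds (left) and for explants labelled VEGFR2i minus vehicle (right). Points are differences of means of 2 arrays, bars span the 4 pairs of arrays and dashed lines mark 1.5-fold. Bmp4 (0.85) and Tgfb2 (0.71) lie past the line on the left, and Tgfb1 (1.63), Eng (1.60), Inhba (0.74) and Acvrl1 (0.61) on the right.

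Of the 3 TGF-beta ligands, Tgfb1 is the form most linked to endothelial and blood cells. It stood at 8.05 and 8.04 on the VEGF arrays and at 7.49 and 7.46 on the control arrays. In the explants it stood at 7.89 and 7.77 in the pool labelled VEGFR2i and at 6.22 and 6.17 in vehicle. Vehicle was thus the low pool, below all 6 other arrays. The difference was 0.57 [0.55 to 0.59] in the buds, 1.48-fold and just under the rule, and 1.63 [1.55 to 1.71] in the explants, 3.10-fold. Without control array 1 (0.59), or with each array centred on its own median (0.59), Tgfb1 also passed in the buds.

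Tgfb2, a ligand of epithelium and mesenchyme in many embryonic organs, stood at 7.10 and 7.06 in VEGF against 6.38 and 6.37 in control. Its explant arrays were close together, at 6.88 and 6.80 in the pool labelled VEGFR2i and 6.90 and 6.89 in vehicle. The control buds were the low pool. Tgfb2 was higher in the VEGF buds by 0.71 [0.68 to 0.73], 1.63-fold, and its explant difference was -0.05 [-0.10 to -0.01]. Tgfb3, the third form, stood at 6.67 and 6.48 in VEGF, 6.17 and 6.23 in control, 7.20 and 7.24 in the pool labelled VEGFR2i and 6.88 and 6.94 in vehicle. Its arrays did not overlap in either comparison, but the differences of 0.38 [0.25 to 0.51] and 0.31 [0.26 to 0.36] were under the rule.

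Among the 7 BMP and GDF ligands only Bmp4 passed the rule. Bmp4, which in embryos is made largely by mesenchyme and mesothelium, stood at 7.13 and 7.07 in VEGF against 6.37 and 6.14 in control. In the explants it stood at 5.62 and 5.65 in the pool labelled VEGFR2i and at 5.29 and 5.32 in vehicle. The order of the 4 pools was VEGF, control, labelled VEGFR2i and vehicle, with no overlap of neighbouring arrays. The difference was 0.85 [0.70 to 0.99] in the buds, 1.80-fold, and 0.33 [0.30 to 0.36] in the explants.

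Gdf10 (BMP3b), a relative of Bmp3, stood at 5.86 and 6.01 in VEGF against 5.18 and 5.53 in control, and at 5.31 and 5.49 in the pool labelled VEGFR2i against 5.05 and 5.25 in vehicle. The control arrays were far apart, and the bud difference of 0.58 [0.33 to 0.83], 1.49-fold, fell just short of the rule. Gdf10 passed it without VEGF array 1 (0.66), without control array 2 (0.75), with centred arrays (0.60) and with all 8 arrays set to 1 distribution (0.61). Its explant difference was 0.25 [0.05 to 0.44].

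The other BMP and GDF ligands stayed under the rule in both comparisons. Bmp7, an epithelial BMP in many organs, had a bud difference of -0.31 [-0.38 to -0.24] and an explant difference of -0.12 [-0.16 to -0.08]. Gdf11, a ligand that signals through activin receptors and limits endocrine progenitors of the embryonic pancreas, had differences of -0.34 [-0.35 to -0.33] and 0.12 [0.00 to 0.24]. In the buds both thus had VEGF arrays below both control arrays. Bmp2, the closest relative of Bmp4, differed by 0.05 [0.01 to 0.09] and -0.12 [-0.30 to 0.07]. It was dim in the buds, at 3.45 in VEGF and 3.40 in control. Bmp5 differed by -0.04 [-0.16 to 0.07] and 0.16 [-0.03 to 0.34], with overlapping arrays both times. Bmp6, which in the adult liver is an endothelial signal for iron balance, differed by 0.07 [0.05 to 0.09] and -0.26 [-0.37 to -0.16], the most negative explant difference of any member.

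The activin subunits dimerize into activins, which signal through Smad2 and Smad3. Inhba stood at 3.31 and 3.41 in VEGF and 3.15 and 3.21 in control, under the medians of those arrays (4.08 to 4.12). It stood at 6.14 and 6.07 in the pool labelled VEGFR2i and at 5.26 and 5.48 in vehicle, so the explant arrays did not overlap. Inhba was higher in the pool labelled VEGFR2i by 0.74 [0.60 to 0.88], 1.67-fold, and its bud difference was 0.18 [0.10 to 0.26]. Inhbb, the other subunit, differed by -0.22 [-0.36 to -0.08] in the buds and 0.13 [0.05 to 0.21] in the explants. It too lay under the medians of the bud arrays, at 3.33 in VEGF and 3.55 in control.

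**Figure D2:**
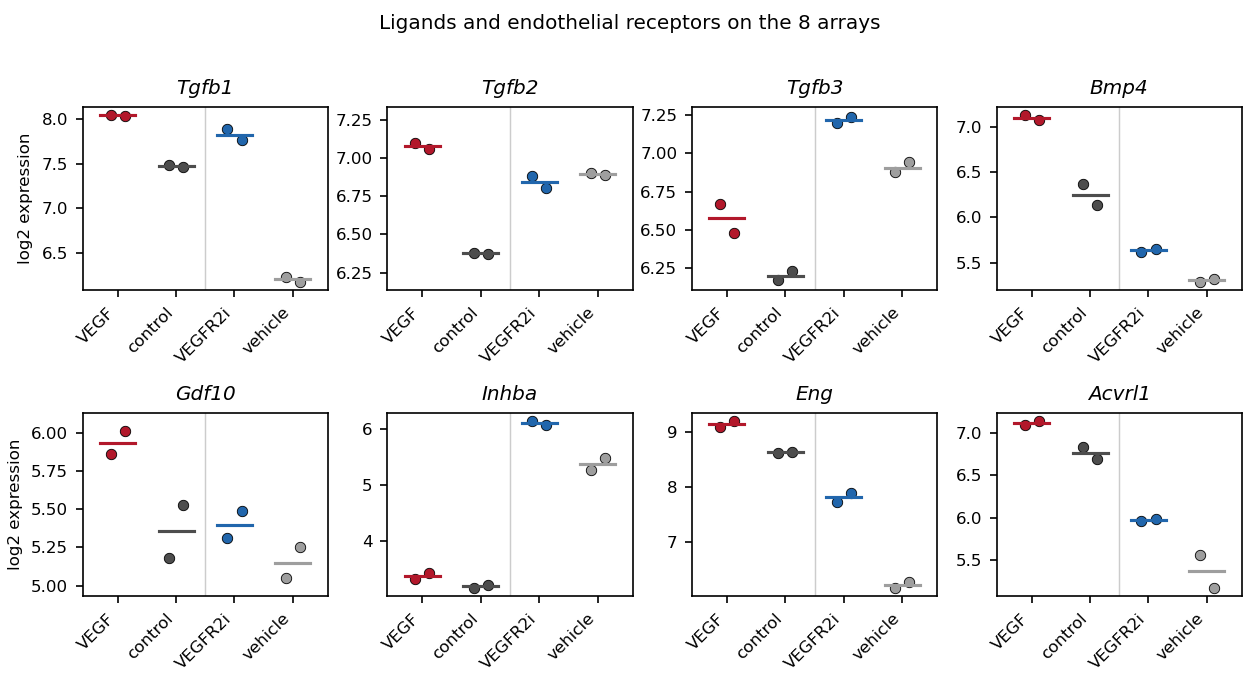
Log2 expression (vertical axis, scaled per gene) of Tgfb1, Tgfb2, Tgfb3, Bmp4, Gdf10, Inhba, Eng and Acvrl1 on the 8 arrays. Points are arrays, horizontal lines pool means, and VEGFR2i is the pool so labelled. Tgfb1 stands at 7.83 in the explants labelled VEGFR2i and at 6.20 in vehicle, Eng at 7.81 and 6.22, and Inhba stands near 3 in the fresh buds and above 5 in the explants.

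Of the 6 type I receptors, Acvrl1 passed the rule, and only in the explants. Acvrl1 (ALK1), the endothelial type I receptor, stood at 7.09 and 7.14 in VEGF against 6.84 and 6.69 in control. It stood at 5.96 and 5.99 in the pool labelled VEGFR2i against 5.56 and 5.17 in vehicle. The 2 vehicle arrays had the widest gap of any member in any pool. The differences were 0.35 [0.25 to 0.45] in the buds and 0.61 [0.40 to 0.82], 1.53-fold, in the explants. The call was lost without vehicle array 2 (0.42) and with all 8 arrays set to 1 distribution (0.58, just under the rule).

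Tgfbr1 (ALK5), the type I receptor for TGF-beta, had a difference of 0.00 [-0.05 to 0.05] in the buds and 0.15 [0.13 to 0.16] in the explants. Bmpr1a (ALK3), a main BMP receptor, had differences of 0.08 [0.06 to 0.10] and -0.03 [-0.09 to 0.02]. Bmpr1b (ALK6), which lay between 3.38 and 3.71 on all arrays, differed by 0.07 [-0.06 to 0.20] and -0.13 [-0.23 to -0.03]. Tgfbr1 and Bmpr1a, the widely used type I receptors among these, thus differed by no more than 0.15 in either pair of pools. Acvr1 (ALK2), a BMP receptor, differed by 0.14 [-0.06 to 0.34] and 0.21 [0.14 to 0.28]. Acvr1b (ALK4), the type I receptor for activin, had a bud difference of -0.31 [-0.38 to -0.24] and an explant difference of -0.08 [-0.13 to -0.04].

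None of the 4 type II receptors, which bind ligand and activate the type I receptor, passed the rule. Tgfbr2, the type II receptor for TGF-beta, differed by 0.10 [0.06 to 0.14] in the buds and by 0.30 [0.25 to 0.35] in the explants, without overlap of arrays in either. Bmpr2, for BMPs, differed by 0.08 [0.05 to 0.10] and 0.23 [0.18 to 0.29]. The activin receptors were flatter still. Acvr2a differed by 0.03 [0.01 to 0.06] and 0.03 [-0.01 to 0.07], and Acvr2b by 0.00 [-0.05 to 0.06] and -0.12 [-0.25 to 0.02].

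The coreceptors present ligand to the kinases. Endoglin (Eng), a coreceptor of vascular endothelium for TGF-beta and BMP9, stood at 9.10 and 9.20 in VEGF against 8.62 and 8.64 in control. It stood at 7.73 and 7.89 in the pool labelled VEGFR2i and at 6.16 and 6.27 in vehicle. As for Bmp4, the 4 pools were ordered without overlap as VEGF, control, labelled VEGFR2i and vehicle. Eng was higher in the explants labelled VEGFR2i by 1.60 [1.47 to 1.73], 3.02-fold. Its bud difference of 0.52 [0.46 to 0.58], 1.43-fold, was under the rule. Betaglycan (Tgfbr3), the more widely expressed coreceptor, which binds TGF-beta 2 and inhibin, differed by 0.19 [0.04 to 0.34] and 0.15 [0.07 to 0.22].

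Tgfb1, Eng and Acvrl1 had differences of the same sign as all 20 endothelial markers in both comparisons. That sign, positive, was common. Of the 43 members 30 had it in the buds (69.8%, against 51.6% of all genes) and 26 in the explants (60.5%, against 48.1%). The 20 markers had a median difference of 0.55 in the buds, with 9 higher, and of 1.92 in the explants, with 19 higher (range 0.23 to 4.10). In the explants the difference of Tgfb1 exceeded that of 7 of the 20 markers, that of Eng 7 and that of Acvrl1 only 1. Markers of other cell types moved as well. In the explants 8 of 10 mural cell markers (median 0.84; summed signal 6972 and 6862 against 4224 and 4176) and 8 of 10 leukocyte markers (median 0.88; 952 and 919 against 452 and 472) were higher. Of 8 erythroid markers 2 were higher, the globins Hbb-y (2.23) and Hba-x (1.62). The erythroid median was 0.07, and the summed signal 1181 and 1163 against 315 and 306. Acinar markers lay the other way, with 7 of 12 lower and both arrays below vehicle for all 12 (median -0.74; 24393 and 23995 against 30873 and 31355). In the buds 1 of the 10 mural markers and none of the 10 leukocyte markers was higher, with medians of 0.12 and 0.10. The part of these cells in the differences of Tgfb1, Eng, Acvrl1 and Inhba was not tested.

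Bmp4 also had the positive sign of the endothelial markers in both comparisons, and Tgfb2 in the buds alone. In the buds the difference of Bmp4 exceeded those of 17 of the 20 endothelial markers, that of Tgfb2 14, of Tgfb1 11, of Eng 8 and of Acvrl1 1. In the explants that of Bmp4 exceeded 1, as for Acvrl1, and that of Tgfb2 0. The bud pools also differed in mesothelial markers, of which 5 of 8 were higher in VEGF (median 0.66; summed signal 1095 and 1071 against 753 and 766), and in epithelial markers, of which 9 of 15 were lower (median -0.61; 4162 and 4001 against 6154 and 6125). Of 8 mesothelial markers none was called in the explants (median 0.08), and of 15 epithelial markers none (median -0.17). Of 15 mesenchyme markers 0 were higher and 1 lower in the VEGF buds (median 0.06). In the explants 2 of the 15 were higher and 0 lower (median 0.14). In the buds acinar markers were lower for 5 of 12 (median -0.34; 2307 and 2217 against 4564 and 4572). Erythroid markers were higher for 6 of 8 in the VEGF buds (median 1.02) and endocrine markers lower for 9 of 11 (median -1.58). Some markers of these lists lay near the lowest value on any array, 2.41, such as Rnase1 at 2.95 and Cpb1 at 2.97 in control. Whether every marker was detected was not tested. The part of these cells in the bud differences was not tested.

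**Figure D3:**
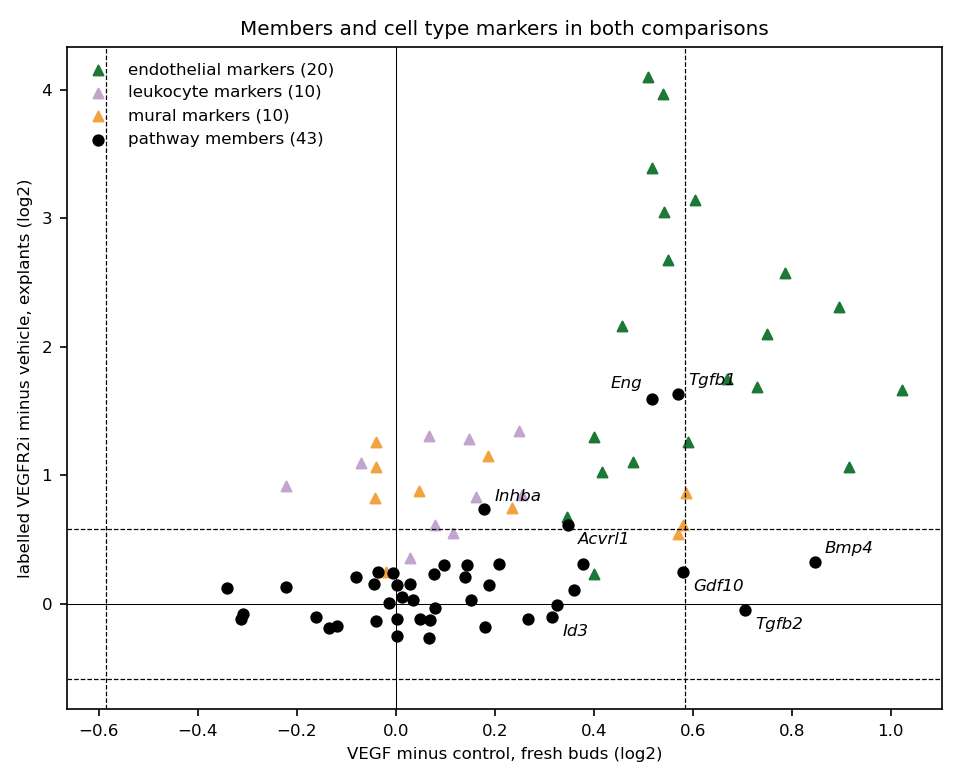
Difference in the explants (labelled VEGFR2i minus vehicle, vertical axis, log2) against difference in the fresh buds (VEGF minus control, horizontal axis, log2) for the 43 members and for markers of endothelial, mural and leukocyte cells. Each point is a gene and dashed lines mark 1.5-fold. Tgfb1 and Eng lie among the endothelial markers, Inhba and Acvrl1 lie lower, and Bmp4 and Tgfb2 lie to the right with explant differences of 0.33 and -0.05.

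None of the 8 secreted or membrane antagonists and modulators passed the rule in either comparison. Their median differences were -0.01 and 0.00. Several were dim, and the normalization compresses differences of dim genes. In control, Bmper stood at 3.56, Grem1 at 3.58 and Chrd at 3.74, below the array medians of 4.10 and 4.12. In the explants labelled VEGFR2i and vehicle, Grem1 (3.77 and 3.91) and Chrd (4.19 and 4.18) were again below the medians of those arrays. Fstl1 (9.92) and Bambi (7.50) were not dim in control. Noggin (Nog), a soluble trap for BMPs, had the largest bud difference, 0.33 [0.04 to 0.61], which spans a wide range because its arrays stood at 4.45 and 4.74 in VEGF and at 4.13 and 4.41 in control. Its explant difference was -0.01 [-0.08 to 0.06]. Follistatin (Fst), which traps activin, differed by -0.12 [-0.25 to 0.01] and -0.17 [-0.24 to -0.10]. Fstl1, a follistatin-like protein of mesenchyme, differed by 0.14 [0.10 to 0.19] and 0.30 [0.27 to 0.33], without overlap of arrays. Gremlin 1 (Grem1), a BMP antagonist of mesenchyme, differed by -0.04 [-0.24 to 0.16] and -0.14 [-0.33 to 0.06], with overlap in both.

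Chordin (Chrd) binds BMPs outside the cell and differed by -0.01 [-0.12 to 0.09] and 0.01 [-0.14 to 0.15]. The related Chrdl1 differed by -0.16 [-0.23 to -0.09] and -0.10 [-0.17 to -0.03]. Bambi, a pseudoreceptor that lacks the kinase, differed by -0.01 [-0.07 to 0.06] and 0.24 [0.14 to 0.34]. Bmper, a BMP-binding regulator first known from endothelial precursors, differed by 0.15 [-0.03 to 0.33] and 0.03 [-0.04 to 0.10], again with overlap in both. Of the 8 genes, 5 had overlapping arrays in the buds (62.5%, against 54.7% of all genes) and 4 in the explants (50%, against 49.0%), close to the shares of all genes.

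The 4 receptor Smads and Smad4, which carry the signal to the nucleus, did not pass the rule. Their differences lay between -0.14 and 0.03 in the buds and between -0.19 and 0.25 in the explants. In the explants the arrays of all 5 were apart, while those of 49.0% of all genes overlapped. Smad1, for BMP, differed by -0.08 [-0.14 to -0.01] and 0.21 [0.12 to 0.29], and Smad5, its partner, by -0.04 [-0.10 to 0.02] and 0.25 [0.20 to 0.29]. Smad2, for TGF-beta and activin, differed by 0.03 [-0.03 to 0.09] and 0.15 [0.06 to 0.24]. Smad3, on the same branch, was the one with negative differences in both, -0.14 [-0.17 to -0.11] and -0.19 [-0.21 to -0.16]. Smad4, the common partner, differed by 0.01 [0.01 to 0.02] and 0.06 [0.03 to 0.08]. Array values of mRNA do not show phosphorylation, the step by which these proteins act.

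The inhibitory Smads are induced by the pathway and shut it down. Smad6, which blocks the BMP branch, stood at 6.75 and 6.70 in VEGF against 6.44 and 6.28 in control, and at 6.50 and 6.41 in the pool labelled VEGFR2i against 6.28 and 6.42 in vehicle. Its bud arrays were apart and its explant arrays overlapped. The differences were 0.36 [0.26 to 0.46] and 0.11 [-0.01 to 0.22]. Smad7, which blocks both branches, differed by 0.21 [0.11 to 0.31] and 0.31 [0.26 to 0.36], with its VEGF and labelled VEGFR2i arrays above their controls.

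The Id genes, which encode partners that hold back basic helix-loop-helix factors, are the targets by which BMP activity is often read. None passed the rule. For Id1, Id3 and Id4 the arrays lay above control in the buds and below vehicle in the explants, as for 4.23% of all genes. Id1 stood at 7.54 and 7.53 in VEGF against 7.28 and 7.26 in control, and at 7.40 and 7.40 in the pool labelled VEGFR2i against 7.51 and 7.52 in vehicle. Id3 stood at 7.06 and 6.97 against 6.73 and 6.67 in the buds, and at 7.15 and 7.11 against 7.29 and 7.16 in the explants. For both the VEGF buds were above control and the explants labelled VEGFR2i below vehicle.

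In numbers, the difference of Id1 was 0.27 [0.25 to 0.28] in the buds and -0.12 [-0.12 to -0.11] in the explants. That of Id3 was 0.32 [0.25 to 0.39] and -0.10 [-0.19 to -0.02]. Id4 differed by 0.18 [0.10 to 0.26] and -0.18 [-0.21 to -0.15], in the same manner. Id2 differed by 0.00 [-0.06 to 0.06] with overlapping arrays in the buds, and by -0.25 [-0.29 to -0.21] in the explants. In the explants all 4 Id genes thus had both arrays labelled VEGFR2i below both vehicle arrays, as did 25% of all genes, while Tgfb1 and Eng lay the other way. Whether the difference of the Id genes itself differs between the comparisons was not tested.

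**Figure D4:**
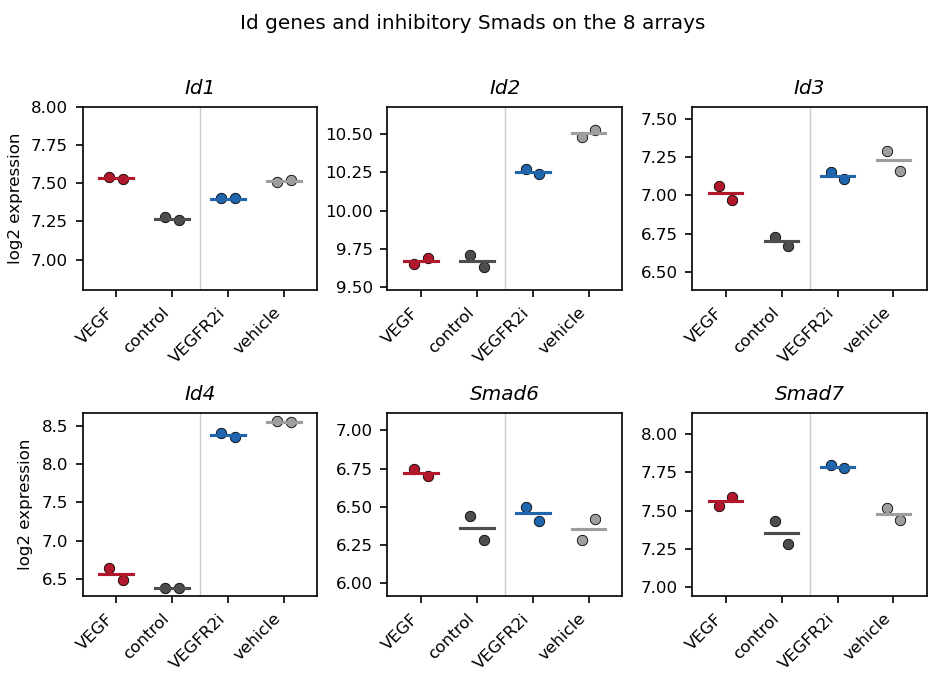
Log2 expression (vertical axis, scaled per gene) of Id1, Id2, Id3, Id4, Smad6 and Smad7 on the 8 arrays, with arrays as points and pool means as lines. VEGFR2i is the pool so labelled. For Id1, Id3 and Id4 the VEGF arrays lie above control and the arrays labelled VEGFR2i lie below vehicle, with differences between -0.18 and 0.32.

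Set side by side, the comparisons share no arrays. In both, 13 members (30.2%, against 9.87% of all genes) had arrays above those of the control or vehicle pool: Tgfb1, Tgfb3, Tgfbr2, Tgfbr3, Eng, Acvrl1, Bmp4, Bmpr2, Inhba, Fstl1, Smad4, Smad7 and Gdf10. Bmp7, Acvr1b, Chrdl1 and Smad3 were below in both (9.3%, against 7.47%). Tgfb2, Bmp6, Id1, Id3 and Id4 were above in the buds and below in the explants (11.6%, against 4.23%), and Inhbb, Smad1 and Gdf11 the reverse (6.98%, against 4.65%). Bmp5, Acvr2b, Grem1, Chrd and Bmper had overlapping arrays in both (11.6%, against 30%), and the others overlapped in 1 comparison. Across the 43 genes the differences correlated with Pearson's r = 0.46, against 0.31 over all genes, as a description only, since the genes come from the same pools. These sides and signs take the explant labels as given. With the explant labels exchanged, above and below would change places in the explants and both correlations would turn negative.

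Of 81 further ligands, receptors, binding proteins, latency and activation factors, Smad partners and targets, 74 were measured. In the buds 0 passed the rule, against 1.48% of all genes, with a median difference of 0.02. In the explants 3 were higher and 1 lower (5.41%, against 2.19% of all genes), with a median of 0.03. Tgfbi, a matrix protein named for its induction by TGF-beta, was higher in the pool labelled VEGFR2i at 9.39 against 8.42, a difference of 0.97. Thrombospondin 1 (Thbs1), which can free TGF-beta from its latent complex, was higher by 0.68, at 9.84 against 9.17. In the buds the difference of Tgfbi was -0.21 [-0.28 to -0.14] and that of Thbs1 0.47 [0.46 to 0.49]. Of the 8 target genes measured, 5 had positive and 3 negative differences in the explants (median 0.03), and 4 and 4 in the buds.

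Tagln (SM22), a smooth muscle gene that TGF-beta induces and that is also on the mural marker list, was higher by 0.61 in the explants. Its bud difference was 0.58 [0.51 to 0.66], just under the rule. The explant call of Tagln was lost without vehicle array 2. Sostdc1, a secreted antagonist of BMP and Wnt, was the one lower gene in the explants, at 6.09 against 7.20, a difference of -1.11. Bmp10 and Gdf2 (BMP9), the ligands with highest affinity for ALK1, lay between 2.99 and 3.40 in all 4 pool means, low on the scale of these arrays, whose lowest value was 2.41.

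Between fresh buds and explants the levels of several members differed by far more than within a pair. With the possible separate normalization, culture, genotype and array set cannot be told apart here. The median of all genes was itself 0.17 higher in vehicle than in control. All 4 explant arrays lay above all 4 bud arrays for 23 members (53.5%, against 54% of all genes) and below for 6 (14%, against 9.6%). The 6 were Tgfbr3, Eng, Acvrl1, Bmp4, Bmp5 and Acvr2b.

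Vehicle minus control was 2.19 for Inhba, 2.17 for Id4, 2.17 for Bmper and 1.29 for Bmp2, so an activin subunit, an Id gene, a BMP modulator and a BMP were the members most above the fresh buds. It was -2.42 for Eng, -1.40 for Acvrl1, -1.37 for Bmp5, -1.28 for Tgfb1 and -0.94 for Bmp4. The pool labelled VEGFR2i was nearer to the fresh control for the endothelial genes, with -0.82 for Eng and -0.79 for Acvrl1, and above it for Tgfb1, with 0.35. For Bmp5 it was -1.21. Bmp5 thus lay below the fresh buds in both explant pools, and Tgfb1 in vehicle alone.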

How the data were processed

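The authors deposited 1 value per probe set and array, normalized by RMA (robust multi-array averaging) with Partek Genomic Suite 6.5, as the series' design states. The deposited values run from 2.41 to 13.57 and were taken as log2 expression from that range. RMA sets arrays to 1 distribution and compresses differences of dim genes. Whether fresh buds and explants were normalized together is not stated in the sources used here. The size rule was applied only within each set, and differences across the sets are given as descriptions. RNA was taken from pools, each on 2 arrays, whose number limits the precision.

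Of 35399 probe sets, 21789 had 1 symbol in the platform annotation, 1621 had several and 11989 were not named. Where a gene had several, the one with the highest mean was used, giving 19938 genes. With 1 pool per group the authors' kind of test, over arrays, measures hybridization error, so a rule of size was used, with no p-value. The members and all gene lists were chosen with earlier results of these data known, and no list is independent evidence. Every member is named, and of the other pathway genes those past the rule. Bmp10, Gdf2, the motifs GGAAG and TATAAA and the genes named between sets were picked after their values were seen. Of 81 listed other pathway genes, 7 lacked a probe set with 1 symbol and are not analysed here. All 43 member symbols were in the RefSeq table.

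The alternatives were the mean over probe sets, arrays centred on their medians, quantile normalization of all 8 arrays, genes above the median level only, each array left out, 1.3-fold and 2-fold rules, the methods' t-test and limma 3.58.1 (adjusted p under 0.05, technical repeats taken as samples). Python 3.11.15, pandas 2.3.3, scipy 1.17.1 and R 4.3.3 were used. Samples were grouped by their labels alone.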

Additional observations from a re-analysis of the deposited data

How the results depend on the processing

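With 1 pool per condition no setting measures biological spread, and 2 arrays per pool limit the precision. In the buds 2 members passed the rule. The count was 4 with arrays centred on their medians (Tgfb1 and Gdf10 added), 6 at 1.3-fold, where 3.86% of all genes passed, and 0 at 2-fold, where 0.251% passed. It lay between 2 and 3 with 1 array left out. In the explants 4 members passed, and the same 4 at 1.3-fold, where 4.61% of all genes passed. The count was 2 at 2-fold (Tgfb1 and Eng; 0.667% of all genes), and between 3 and 4 with 1 array left out, Acvrl1 being lost without vehicle array 2.

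Without adjustment the methods' t-test with 1.5-fold gave 2 members in the buds and 3 in the explants, against 1.36% and 2.03% of all genes. It gave 0 and 0 after Benjamini-Hochberg adjustment, which left 0 and 1 of all genes. The limma model gave 2 and 4, against 1.47% and 2.18% of all genes. Both take technical repeats as samples. Of the other pathway genes 0 passed in the buds, and 4 at 1.3-fold, where 3.86% of all genes passed. The bud count was 1 (Tagln) with centred arrays and 0 to 1 with an array left out. In the explants 4 passed, and 11 at 1.3-fold, where 4.61% of all genes passed. The explant count was 1 at 2-fold (Sostdc1; 0.667% of all genes), 0 by the adjusted t-test and 4 to 5 with an array left out. The median difference of the members in the buds was 0.0685, then 0.0912 with centred arrays, 0.0885 over genes above the median level and 0.0573 to 0.0769 with an array left out. In the explants it was 0.105, then 0.147 over genes above the median level and 0.0613 to 0.0977 with an array left out. The cause of these shifts was not tested. Of 333 recomputed values per comparison none of a called gene changed sign. Uncalled members near 0 did so under some setting, 9 in the buds and 5 in the explants. The 333 include settings that could not move a difference. Each member has 1 probe set, so the mean over probe sets is the same value, and the filter on level only drops genes. Leaving an array out could not turn the sign of a called gene either, since the rule asks for arrays that do not overlap. No paired analysis was possible because the labels give a pool and its technical repeat and no replicate numbers that are shared between groups.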

Other observations

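Some other pathway genes, picked after their values were seen, stood far apart between fresh and cultured buds; whether these sets were normalized together is not stated in the sources used here. Vehicle minus control was 3.82 for Sostdc1, the antagonist of BMP and Wnt, which stood at 3.38 in control and 7.20 in vehicle. It was 2.80 for Itgb6, the integrin subunit of epithelia that activates latent TGF-beta, and 2.55 for Acvr1c (ALK7), a type I receptor of endocrine cells. It was 2.37 for Tagln and 1.91 for decorin (Dcn), a matrix proteoglycan that binds TGF-beta. In the pool labelled VEGFR2i the same differences from control were 2.71 for Sostdc1, 2.40 for Itgb6, 2.06 for Acvr1c, 2.98 for Tagln and 1.95 for Dcn. The epithelial markers summed to 6154 and 6125 on the control arrays and to 15650 and 15348 on the vehicle arrays, and the endocrine markers to 6162 and 6115 against 10186 and 10255. The acinar markers summed to 4564 and 4572 on the control arrays and to 30873 and 31355 on the vehicle arrays. Their part in these gaps was not tested.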
